A study of Mus musculus with 3 samples.

Results

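A set of 10 immediate-early genes (the members) was followed in stromal cells of mouse visceral fat: the 4 EGR genes Egr1, Egr2, Egr3 and Egr4, the 3 NR4A genes Nr4a1, Nr4a2 and Nr4a3, the IER genes Ier2 and Ier3, and Srf. They were chosen by name and found by NCBI gene ID, and all 10 had a row among the 27179 genes of the deposited count table. The table holds 3 libraries, all of 1 group. These are stem and progenitor cells of epididymal adipose tissue, taken from male mice of strain C57B6 that were wild type, naive and aged 12 weeks. The fat was digested with Collagenase II, and live cells were sorted for CD140a, Sca1 and PDPN after exclusion of cells with CD45 (leukocytes), CD31 (endothelium) or Ter119 (erythroid cells). There was no second genotype, treatment or cell type, and no RNA from undigested tissue, so the comparisons are between genes within a library and between the 3 libraries. Fat of 3 mice was used, and since no label ties a library to a single mouse, p-values and SDs measure only the spread between these libraries, part of which may be technical.

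Immediate-early genes are switched on within minutes of a stimulus by transcription factors already present in the cell, so that no new protein is needed first. The RAS-ERK cascade activates the ternary complex factors of the ELK family, which bind SRF at CArG boxes, and calcium, cAMP and stress signals act through CREB at cAMP response elements. The EGR proteins are zinc finger transcription factors, the NR4A proteins are nuclear receptors whose ligand pocket is closed and which are governed mainly by their amount, and many immediate-early transcripts are short-lived. Tissue digestion and sorting are themselves known to induce such genes in many cell types. In cultured mouse preadipocytes, Egr2 is known as an early factor that favours fat cell formation, whereas Egr1 is known to restrain it.

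Letter matches to CArG boxes, to the core of cAMP response elements and to EGR sites are shown in the promoters of 3 members. The stretches of Srf, Egr2 and Nr4a1 are shown because, of the members with a promoter sequence, Srf and Egr2 hold CArG boxes and Nr4a1 combines cAMP core sites with an EGR site. Each is the 250 bases before a RefSeq transcription start (GRCm38.p6), 5′ to 3′ on the gene's own strand. Capitals mark the CArG boxes, the cAMP core site TGACG or its reverse complement CGTCA, and the EGR site GCGGGGGCG or its reverse complement. The Srf stretch is chr17:46556163-46556412 on the minus strand, the Egr2 stretch is chr10:67537619-67537868 on the plus strand, and the Nr4a1 stretch is chr15:101266596-101266845 on the plus strand.
Srf: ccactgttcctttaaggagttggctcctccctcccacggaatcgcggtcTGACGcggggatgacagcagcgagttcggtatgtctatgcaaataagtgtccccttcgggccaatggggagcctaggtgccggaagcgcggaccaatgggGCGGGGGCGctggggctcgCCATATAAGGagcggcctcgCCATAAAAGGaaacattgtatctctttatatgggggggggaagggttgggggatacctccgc
Egr2: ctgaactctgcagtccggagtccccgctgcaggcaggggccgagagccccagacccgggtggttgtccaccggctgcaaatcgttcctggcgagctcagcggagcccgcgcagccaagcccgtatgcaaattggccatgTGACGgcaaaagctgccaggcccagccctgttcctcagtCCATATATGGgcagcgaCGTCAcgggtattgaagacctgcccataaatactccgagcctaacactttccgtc
Nr4a1: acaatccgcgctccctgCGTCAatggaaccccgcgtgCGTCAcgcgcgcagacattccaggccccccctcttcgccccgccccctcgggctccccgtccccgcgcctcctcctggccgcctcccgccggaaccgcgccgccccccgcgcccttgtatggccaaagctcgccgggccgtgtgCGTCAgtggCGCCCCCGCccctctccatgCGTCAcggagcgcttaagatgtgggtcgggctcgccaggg

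In the Srf promoter, an EGR site at positions -101 to -93 stands just upstream of 2 CArG boxes, at -82 to -73 and -62 to -53, counted from the transcription start. In the Egr2 stretch shown, a single CArG box at -72 to -63 lies between core sites that begin at -111 and -55. Another Egr2 window, chr10:67537316-67537615, lies upstream of that stretch and has its own CArG box, at -72 to -63 from its own start. Egr2 has 5 annotated windows, some of which overlap, and the window shown is the one with the most CArG boxes and core sites, with the lowest start among ties. The Nr4a1 promoter holds no CArG box but 4 core sites, all on the reverse strand, and an EGR site at -60 to -52.

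**Figure D1:**
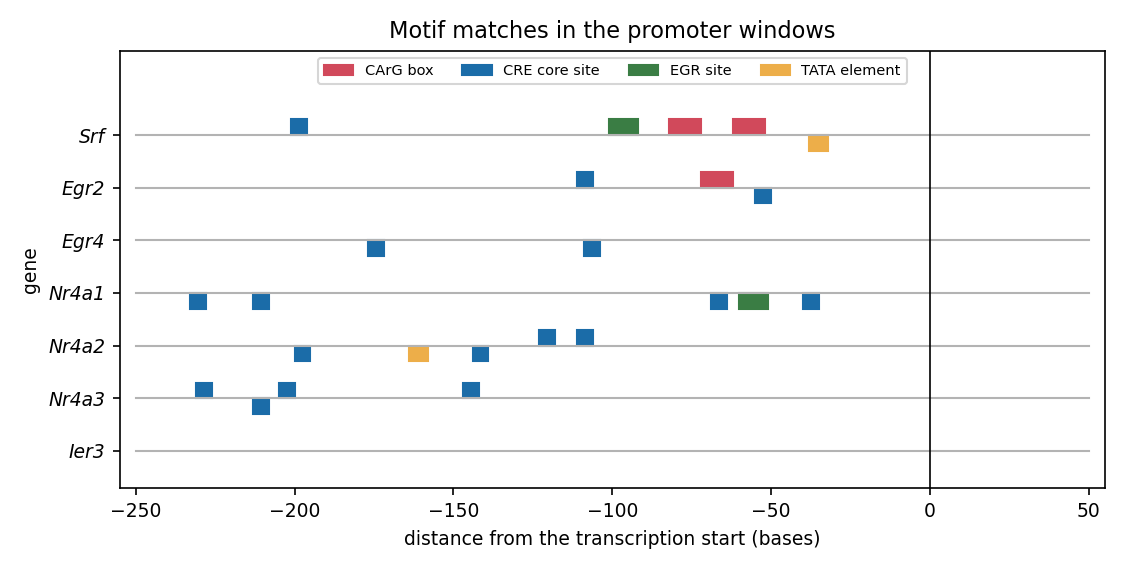
Positions of motif matches in the promoter windows of 7 members, in bases from the transcription start (vertical line at 0), each grey line running from 250 bases before to 50 bases after the start. Boxes above a line are on the gene's strand and boxes below it on the other strand. Srf has 2 CArG boxes, Egr2 has 1 in the window drawn, and Nr4a1, Nr4a2 and Nr4a3 have 4 core sites each.

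Promoter windows of 300 bases (250 before and 50 after the start) were found for 7 members, namely Egr2, Egr4, Nr4a1, Nr4a2, Nr4a3, Ier3 and Srf, and Egr1, Egr3 and Ier2 had no entry. Both strands were searched, and a gene counted once if any of its windows held the motif. The core site TGACG was in 6 of the 7 members, all but Ier3, against 23.0% of the 27025 genes with a window. The CArG box was in 2 of 7, Srf and Egr2, against 1.81% of genes. EGR sites, GCGTGGGCG or GCGGGGGCG, were in 2 of 7, Nr4a1 and Srf, against 3.93% of genes. The full cAMP element TGACGTCA, which contains the core site, was in 0 of 7 against 2.03% of genes, and AAAGGTCA, the site that NR4A receptors bind as monomers, was in 0 of 7 against 1.70%. The letters TATAAA were in 2 of 7, Nr4a2 and Srf, against 15.7%. With 1 inner base of the CArG box free to differ from A or T, 5 of 7 members (Egr2, Egr4, Nr4a1, Ier3 and Srf) matched, against 11.3% of genes. These are letter matches in short windows, and no binding was measured.

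Levels are CPM, read counts rescaled to a common library size by the trimmed mean of M values (TMM), and errors are SD over n = 3 libraries. The libraries held 32813373, 25060096 and 27275888 counts, so that 3 counts came to 0.0945, 0.119 and 0.107 CPM. This is the upper limit for a gene with 0 counts and covers counting error only. At 1 CPM or more in every library, here called detected, were 6 of the 10 members, against 35.0% of all genes. All 6 progenitor markers were detected, with Pdgfra (which encodes CD140a) at 1484 ± 14.5 CPM. Of 33 markers in 7 lists of other cell types, 1 was detected, Ptprc, which encodes CD45, at 5.42, 15.8 and 7.68 CPM in libraries 1, 2 and 3.

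Egr1 was by far the most abundant member, and it was steady between libraries. Its gene (ID 13653) lies at chr18:34861207-34864956, and it had 2777, 2912 and 3170.0 CPM in libraries 1, 2 and 3, from 88152, 73493 and 88759 counts. The mean of 2953 ± 199.7 CPM placed Egr1 33rd of all genes, and its coefficient of variation was 6.76%, against a median of 11.8% over the 114 detected genes of 1000 to 10000 CPM and 33.2% over all detected genes. The 10 members together summed to 3335, 3458 and 3825 CPM, and to 558, 546 and 655 CPM without Egr1.

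Egr2 was present at a far lower level, and library 3 stood apart from the other two. The gene (ID 13654, chr10:67534469-67542188) had 5.71 CPM in library 3, against 54.97 and 51.6 CPM in libraries 1 and 2, from 160 counts against 1745 and 1303. Its mean was 37.4 ± 27.5 CPM, with a coefficient of variation of 73.5%. Libraries 1 and 2 lay close together, so nearly all of this spread came from library 3. Egr2 shares part of its span with Gm32255, a long noncoding RNA on the opposite strand with no row in the table, and whether strand was used in counting is not given in the sources used here.

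Egr3 and Egr4, the remaining EGR genes, were at or near 0. Egr3 (ID 13655, chr14:70077317-70082613) had 1 count in library 2 and 0 in libraries 1 and 3. Egr4 (ID 13656, chr6:85511121-85513589) had 1 count in library 1 and 0 in libraries 2 and 3. Both lay below the upper limit for a gene with 0 counts in every library. Per kilobase of exon and over all libraries, the ratio of Egr1 to Egr3 was 246048 (95% exact counting interval 44160.4 to 9718422). In per-kilobase terms Egr1 made up 98.3 ± 1.27% of the EGR sum and Egr2 1.69 ± 1.26%, with the share of Egr2 at 0.237% in library 3, against 2.55% and 2.29% in libraries 1 and 2.

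The NR4A family had the same shape, with 1 member carrying most of the level. Nr4a1 (ID 15370, chr15:101253902-101274795) had 104.9, 82.2 and 103 CPM in libraries 1, 2 and 3, a mean of 96.7 ± 12.6 CPM. The libraries differed little, with a coefficient of variation of 13.0%, against medians of 35.5% over the 6073 detected genes of 10 to 100 CPM and 18.6% over the 1644 of 100 to 1000 CPM, between which its level lies. Nr4a1 held 92.8 ± 5.92% of the NR4A sum per kilobase.

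Nr4a2 followed Egr2 in setting library 3 apart. Nr4a2 (ID 18227, chr2:57106830-57124003) had 0.429 CPM in library 3, against 14.7 and 11.1 CPM in libraries 1 and 2, from 12 counts against 466 and 279. It was therefore above 1 CPM in 2 libraries but not detected by the rule of every library, with a mean of 8.72 ± 7.41 CPM. LOC105244150 overlaps Nr4a2 and has no row in the table. Nr4a3 (ID 18124, chr4:48045078-48086447) had 0 counts in all 3 libraries, which allows up to 0.0945, 0.119 and 0.107 CPM in libraries 1, 2 and 3. Over all libraries and per kilobase, Nr4a1 was at least 4714-fold higher than Nr4a3, taken at 3 counts over the group.

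The IER genes, compact genes induced by growth factors, were both detected. Ier2 (ID 15936, chr8:84661331-84662852) had 304.7, 309.5 and 455 CPM in libraries 1, 2 and 3, a mean of 356 ± 85.5 CPM. Library 3 was the highest and libraries 1 and 2 lay close together. Ier3, a regulator of cell survival (ID 15937, chr17:35821713-35822911), had 59.6, 67.6 and 51.7 CPM, a mean of 59.6 ± 7.94 CPM. Per kilobase, Ier2 held 81.1 ± 5.005% of the sum of both genes and Ier3 18.9 ± 5.005%.

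Srf encodes the factor that binds CArG boxes and is itself a target of the pathway it serves. Srf (ID 20807, chr17:46546838-46558267) had 18.9, 23.8 and 38.6 CPM in libraries 1, 2 and 3, a mean of 27.1 ± 10.3 CPM. Its highest value was in library 3, where Egr2 and Nr4a2 had their lowest. The microRNA gene Mir6976 lies within Srf and has no row in the table. No other gene matched a member's transcript or coding part at 90% identity over 50% of its length.

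**Figure D2:**
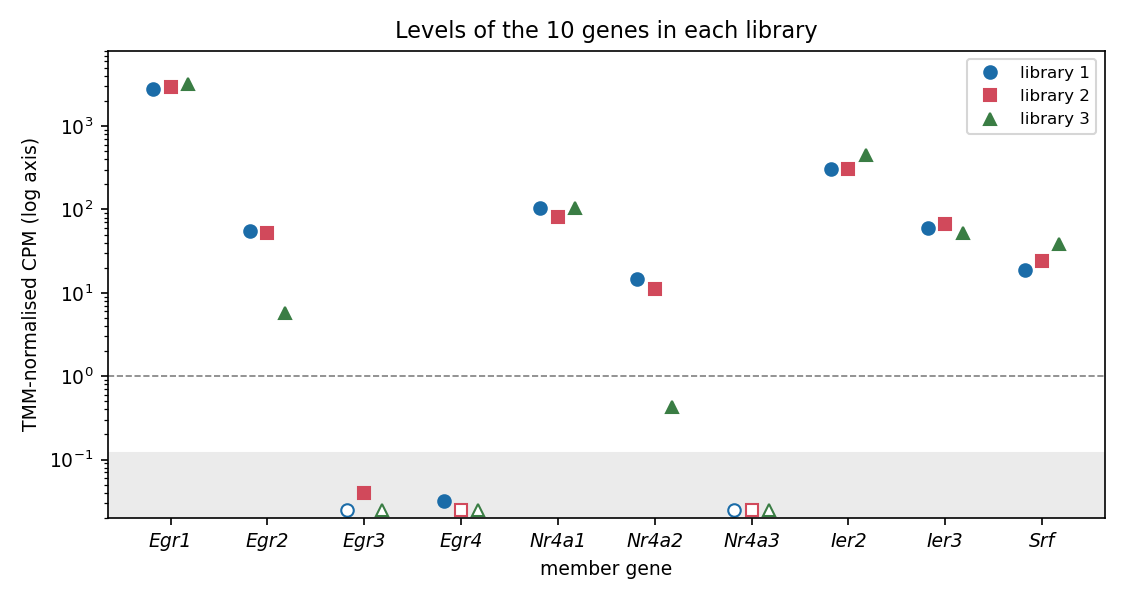
CPM of each member in each of the 3 libraries on a log axis, with the dashed line at 1 CPM, open symbols for 0 counts drawn at the foot of the plot, and the grey band for levels below 3 counts in the shallowest library. Egr1 lies between 2777 and 3170.0 CPM, Egr3, Egr4 and Nr4a3 lie in the band, and library 3 is far below the others for Egr2 and Nr4a2.

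Levels of different genes were compared as CPM per kilobase of merged exon. Egr1 had 659 ± 44.5 CPM per kilobase, followed by Ier2 with 234 ± 56.2, Ier3 with 52.7 ± 7.02 and Nr4a1 with 27.6 ± 3.58. Egr2 came next with 11.02 ± 8.10 CPM per kilobase, then Srf with 9.37 ± 3.55 and Nr4a2 with 2.15 ± 1.82. Neighbours in this order were compared within each library as differences of log2(CPM per kilobase + 0.5). The difference between Egr1 and Ier2 was 1.51 ± 0.24, that between Ier2 and Ier3 was 2.12 ± 0.50, and that between Ier3 and Nr4a1 was 0.92 ± 0.36. These pairs had the same order in 3 of 3 libraries and their ranges did not overlap. Nr4a1 over Egr2 (1.75 ± 1.76) and Srf over Nr4a2 (2.24 ± 2.00) also kept their order in 3 of 3 libraries, with SDs nearly as large as or larger than the difference because of library 3. In an exact sign-flip permutation test over the 3 libraries, each of these 5 pairs had p = 0.25, the smallest such a test allows (two-sided, 0.3 after Benjamini-Hochberg adjustment over 6 pairs), so none could pass 0.05.

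Egr2 and Srf, the other neighbours, did not differ beyond their spread. The log2 difference of Egr2 over Srf was 1.25 and 0.85 in libraries 1 and 2 but -2.67 in library 3, a mean of -0.19 ± 2.15 with overlapping ranges (exact sign-flip permutation test, p = 1). The mean of the log2 differences was thus below 0 although Egr2 had the higher mean per kilobase. Without division by length, Ier3 minus Nr4a1 turned to -0.69, so that the order of these genes is one of level per kilobase only.

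**Figure D3:**
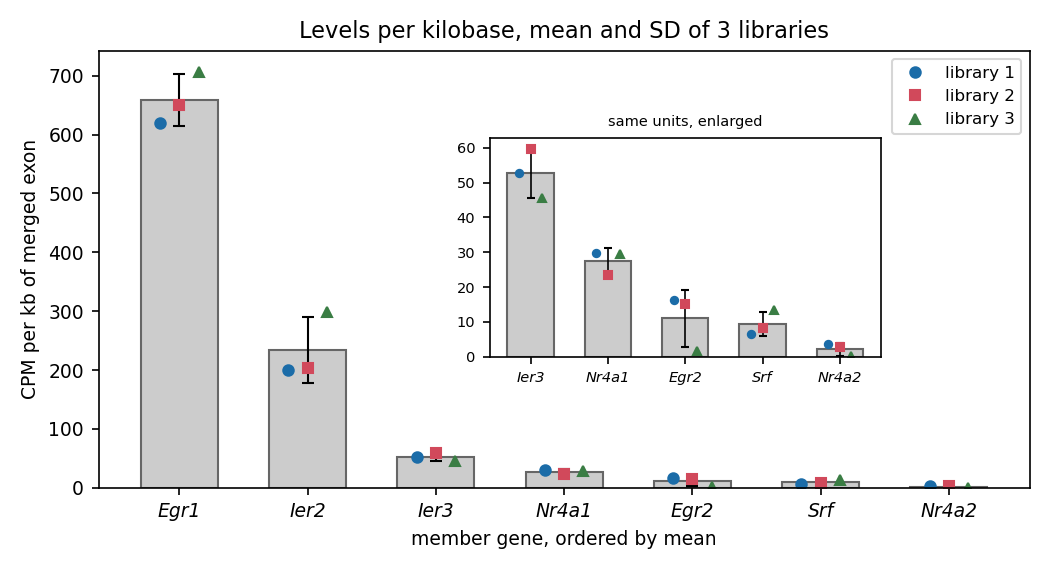
Level per kilobase of merged exon for the 7 members with more than 1 count, as bars for the mean, error bars for the SD and points for the 3 libraries, with the 5 lowest enlarged in the inset. Egr1 (659) and Ier2 (234) stand above the rest, and library 3 is the low point for Egr2 and Nr4a2.

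The median over the 10 members was 10.2 CPM per kilobase, against 6.55 over detected genes and 0.372 over all genes with a length. The rank plot sets each member on the curve of all genes. By mean CPM, not divided by length, the 9 members with counts ran from rank 33, for Egr1, to the foot of the curve. By mean CPM per kilobase, Egr1 ranked 76th of the 21572 genes with a length.

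**Figure D4:**
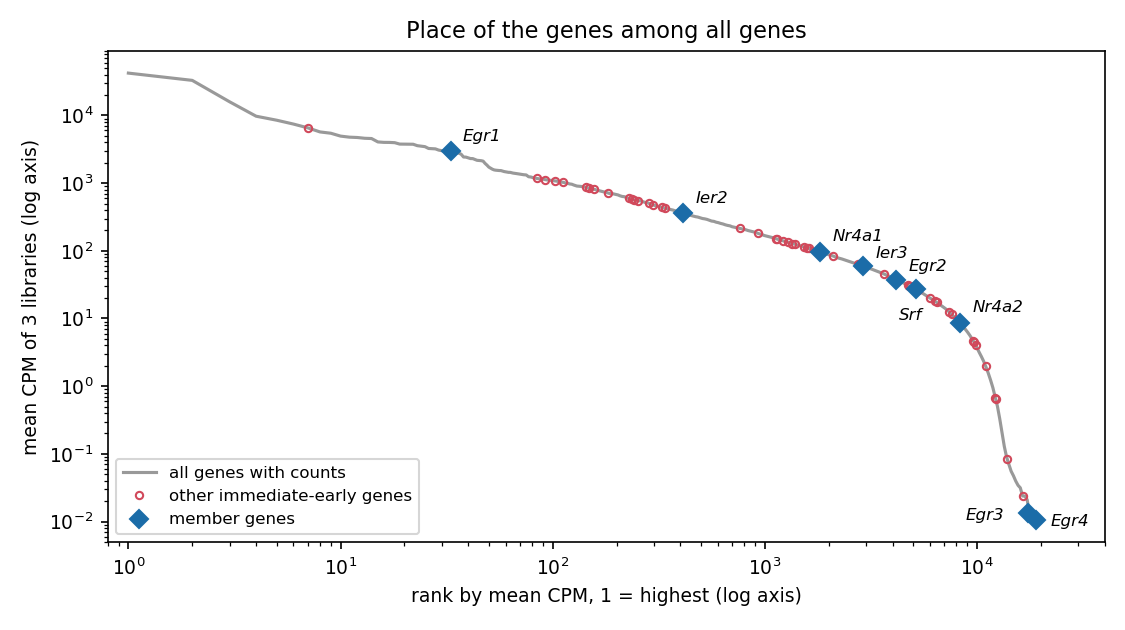
Mean CPM against rank by mean CPM, both on log axes, for all genes with counts (grey line), the members (diamonds) and the other immediate-early genes of the lists (open circles). Egr1 stands at rank 33 and Ier2 at rank 412, and Egr3 and Egr4 lie at the foot of the curve.

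Each library was then set against the other two with edgeR's quasi-likelihood test over 13289 genes. Library 3 had 0 genes past an adjusted p of 0.05 (0% of genes tested), and so did libraries 1 and 2, while 674, 511 and 659 genes had an unadjusted p under 0.05 in libraries 3, 1 and 2. Among the 7 members tested, 2 were under 0.05 unadjusted in library 3, against 5.07% of genes, and 0 in libraries 1 and 2. These were Egr2, with a log2 ratio of -3.22 ± 0.76 (SE, edgeR adjusted p = 0.87), and Nr4a2, with -4.89 ± 1.85 (SE, edgeR adjusted p = 0.89). By DESeq2's Wald test both passed in library 3, with an adjusted p of 0.0014 for Egr2 and 0.046 for Nr4a2, where 197 genes were called (1.48%). In both tests library 3 is a single library with no replicate of its own, so the spread between samples comes only from the other two libraries, and these values do not show how a repeat of library 3 would vary. Over all genes tested, 12.1% were as low or lower in library 3 as Egr2 and 9.23% as Nr4a2, and over those with a mean above 10 CPM, which Nr4a2 does not reach, 1.07% and 0.516%.

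For the other 5 members tested, library 3 lay closer to the rest. The log2 ratio of library 3 to the others was 0.86 ± 0.73 (SE) for Srf and 0.57 ± 0.29 for Ier2. It was 0.16 ± 0.21 for Egr1, 0.14 ± 0.43 for Nr4a1 and -0.30 ± 0.51 for Ier3, and edgeR's adjusted p was 0.89 or more for these 5 genes. Of 5 other immediate-early lists (AP-1, DUSP, ZFP36 with BTG and TOB, KLF and a mixed list), 53 genes were in the test, and their median log2 ratio of library 3 was -0.03, against -0.10 over all genes tested. Below -1 were 3 of the 53, Tob1, Plk3 and Dusp2, against 24.6% of all genes tested, and above 1 were 3, Dusp10, Dusp14 and Per1, against 14.9%. Most of the 53 were detected, unlike many of the genes tested. Of the 48 that were detected, 1 lay below -1, Tob1, against 13.0% of all detected genes. As low as Egr2 was 1 of the 53, Dusp2, which had 0 counts in libraries 3 and 1 and 51 in library 2. Tob1 had 31.8 CPM in library 3, against 55.9 and 87.3 CPM in libraries 1 and 2, and Plk3 had 0.50 CPM, against 1.89 and 3.49 CPM. These 6 genes were named after their values were seen.

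**Figure D5:**
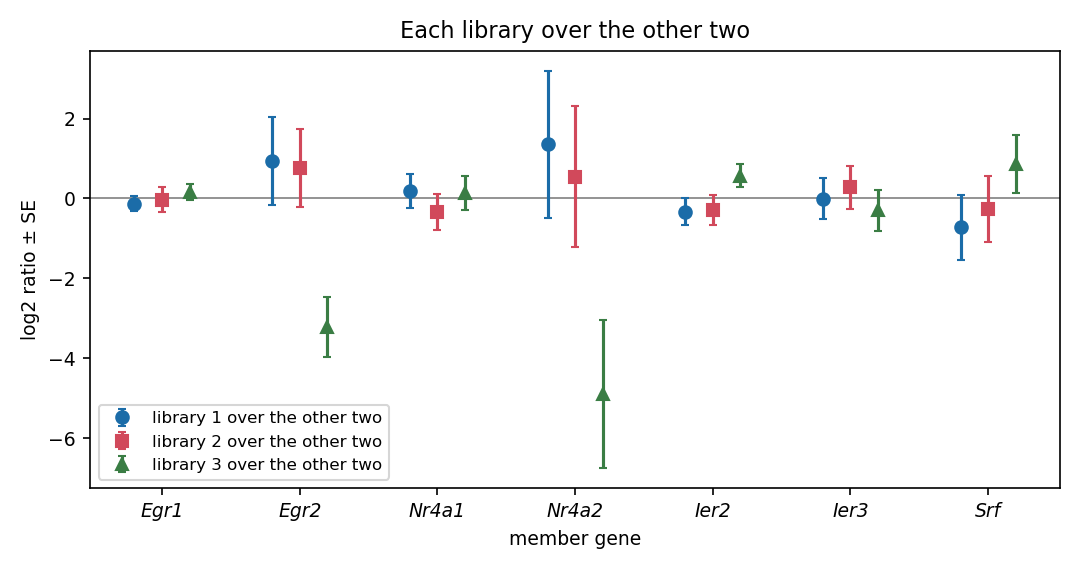
Log2 ratio of each library to the other two with its SE from edgeR's quasi-likelihood fit, for the 7 members tested. Library 3 lies at -3.22 for Egr2 and -4.89 for Nr4a2, and the other 5 members lie between -0.73 and 0.86 in all libraries.

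Cells other than the sorted ones can carry these transcripts, so their markers are given beside the low values of library 3. The 7 macrophage markers, none of them detected, summed to 0.179 CPM in library 3, against 1.04 and 2.22 CPM in libraries 1 and 2, with C1qb at 0 in all. Single genes carried these sums, Lyz2 with 25 counts in library 1 and Csf1r with 55 in library 2. The 4 adipocyte markers summed to 0.0357 CPM in library 3, against 0.945 and 6.50 CPM in libraries 1 and 2, carried by Plin1 (28 counts in library 1) and Retn (164 in library 2), with Adipoq and Cidec at 0 in all. The 4 mural markers summed to 1.39 CPM in library 3, against 2.74 and 6.86 CPM. Within that list Kcnj8 had 0 counts in library 3, against 69 and 111, Myh11 had 7, against 0 and 2, and Rgs5 was at 0 in all. The other lists did not have their lowest sum in library 3 alone. The 5 leukocyte markers summed to 7.71 CPM in library 3, against 5.45 and 15.9 CPM, the endothelial markers to 0.143 CPM, against 0.0945 and 0.198 CPM, the mesothelial markers to 0.214 CPM, against 0.126 and 0.119 CPM, and the erythroid markers to 0 CPM, against 2.17 and 0 CPM. The part of these cells in the differences of Egr2 and Nr4a2 was not tested. In these bulk libraries, fewer cells with a transcript and less of it per cell cannot be told apart.

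The genes that act upstream of the members were mostly present. Of 17 genes of the RAS-ERK cascade 14 were detected, against 35.0% of all genes. Among the 14 was the kinase gene Map2k1 at 112 ± 26.4 CPM. The kinase gene Rps6ka1 had 0 counts, and Rps6ka2 and Rps6ka3 were not detected. All 8 genes of the CREB list were detected, among them Creb1 at 100.2 ± 24.5 CPM and the coactivator gene Ep300 at 82.7 ± 25.3.

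Of 6 genes for SRF cofactors, 4 were detected, against 35.0% of all genes. Among the ternary complex factors Elk3 had 66.9 ± 15.6 CPM and Elk1 10.04 ± 3.90, while Elk4 had 2.46, 0.040 and 2.57 CPM and was not detected. The actin-regulated cofactors Mkl2 and Mkl1 (also named Mrtfb and Mrtfa) had 28.2 ± 5.29 and 3.39 ± 1.59 CPM. Myocd, the cofactor of cardiac and smooth muscle, had 0 counts. Of 12 cytoskeletal SRF targets 10 were detected, with Actb at 1553 ± 322 CPM, Flna at 280.1 ± 23.4, Vcl at 255 ± 46.9 and Zyx at 141 ± 13.3. Among the smooth muscle genes of this list, Myl9 had 27.1 ± 5.64 CPM and Tagln 4.05 ± 1.99 CPM, and Acta2 and Cnn1 were not detected.

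Partners and rivals of the members were present too. Nab1 and Nab2, whose products bind EGR proteins and repress their activity, had 102 ± 54.3 and 10.1 ± 2.17 CPM. All 4 genes for other zinc fingers of GC-rich sites were detected, with Sp3 at 250.5 ± 44.6 CPM, Klf9 at 207 ± 41.0, Wt1 at 198 ± 38.1 and Sp1 at 169.6 ± 17.0. Of the retinoid X receptors, with which NR4A1 and NR4A2 can pair, Rxra had 25.02 ± 8.75 CPM and Rxrb 12.7 ± 3.13, and Rxrg had 1 count in all. The IER relatives Ier5 and Ier5l had 306 ± 57.1 and 4.14 ± 2.02 CPM. Per kilobase, Ier2 had a level of 234 CPM, against 93.5 CPM for Ier5.

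Among the 56 measured genes of the 5 other immediate-early lists, 48 were detected, against 35.0% of all genes. The median of the 56 was 28.4 CPM per kilobase. Detected were 7 of 8 AP-1 genes, 5 of 9 DUSP genes, 7 of 8 genes of the ZFP36, BTG and TOB list, 4 of 4 KLF genes and 25 of 27 genes of the mixed list. Only Fos, an AP-1 gene, was above Egr1, with 2795 CPM per kilobase against 659 for Egr1, and 9 of the 56 were above Ier2. The KLF genes Klf2, Klf4 and Klf6 had 1173 ± 181, 871 ± 141 and 842 ± 46.6 CPM. Zfp36, whose product speeds the decay of mRNA, had 1078 ± 79.4 CPM, and Dusp1, which encodes a MAP kinase phosphatase, had 141 ± 26.0 CPM. The DUSP genes not detected were Dusp2, Dusp4, Dusp5 and Dusp14. Of 5 immediate-early genes known from active neurons 2 were detected, Arc at 2.74, 6.02 and 1.46 CPM and Nptx2 at 2.05, 8.48 and 1.11 CPM in libraries 1, 2 and 3. Homer1, a synaptic scaffold gene, had 0.284, 18.9 and 13.1 CPM, and Npas4 and Bdnf had fewer than 10 counts in all.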

How the data were processed

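RNA was measured in 3 libraries of 1 group of sorted adipose progenitors, prepared with the SMARTer Ultra Low Input V4 kit, per the labels' protocols. Names of tools in the submitters' processing notes are CASAVA 1.8.2 and STAR 2.3.0, and the build is mm10. How reads were counted, with which annotation and whether by strand is not given in the sources used here. Raw read counts for each NCBI gene ID were deposited by the authors, and its columns were matched to samples by the number in their titles. Symbols and coordinates came from RefSeq GRCm38.p6 (25275 of 27179 IDs matched), and exon lengths from GENCODE M21 (21572 genes). Copies were sought with BLAST 2.17.0.

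CPM used TMM sizes in edgeR 4.0.16 (R 4.3.3), and log2 values a pseudocount of 0.5, which understates differences of low genes. Quasi-likelihood fits kept genes with 10 counts or more in at least 1 library and adjusted over all of them (Benjamini-Hochberg, 0.05). They took the single library to vary like the others. On simulated data these fits missed most of the smaller changes put into library 3, and part of the larger ones. The SE is the log2 ratio divided by the root of the F statistic. DESeq2 1.42.0 gave alternative sizes and its Wald test. The remaining steps used Python 3.11.15, numpy 2.4.6, pandas 2.3.3, scipy 1.17.1 and matplotlib 3.10.9.

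The members, lists and tests were chosen with earlier results of these data known. All members are named, with up to 4 genes of each list by highest mean CPM, list members at or near 0, and for Egr1, Nr4a1 and Ier2 the 3 detected protein-coding genes with the most similar levels over libraries. A few list genes covered by the rule are not reported here. Genes so marked were named after their values were seen. Alternatives were other detection thresholds, pseudocounts, size factors, gene filters, the longest transcript length, no division by length, a looser CArG box and leaving out each library.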

Additional observations from a re-analysis of the deposited data

How the results depend on the processing

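The number of detected members lay between 4 (20 CPM) and 7 (without library 3) under the thresholds, size factors and left-out libraries tried, and the summed level between 3397 and 3641 CPM without 1 library. Ier3 minus Nr4a1 fell to 0.47 per kilobase of the longest transcript, and turned to -0.69 without division by length. Egr2 minus Srf ran between -0.91 and 1.05 when 1 library was left out, and was 1.05 without library 3. Nr4a1 minus Egr2 ran between 0.74 and 2.32, and Srf minus Nr4a2 between 1.10 and 2.98. DESeq2's Wald test called Egr2 and Nr4a2 in library 3, whereas edgeR called no member under any gene filter tried. How many of all genes passed depended on the test and, within edgeR, on the gene filter. The adjusted p of Egr2 in library 3 also depended on that filter. Without a gene filter, edgeR's log2 ratios in library 3 were -3.22 for Egr2 and -4.89 for Nr4a2. With a filter of 1 CPM that of Egr2 was again -3.22. Nr4a2 was not in that fit, because its level in library 3 is below the filter. The same TMM sizes were used under each filter, so these ratios could hardly move and are no check of the result. The looser CArG box gave 5 members, against 2. In a comparison added after the data were seen, log2(CPM + 0.5) of Egr2 in library 3 was -3.07 and -3.16 relative to libraries 2 and 1 taken singly, and that of Nr4a2 -3.64 and -4.03. No paired analysis was possible because there is 1 group. Leaving out a library from the test of 1 against the other two would leave 1 against 1, so it was not run. The depth limits statements on Egr3, Egr4 and Nr4a3 to levels under about 3 counts per library.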

Other observations

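By the distance of log2(CPM + 0.5) over the 3 libraries, the genes with levels most like those of Egr1, among 9152 detected protein-coding genes, were Nid1, a basement membrane gene (distance 0.12), Fstl1, a secreted glycoprotein gene (0.13), and Selenop, a selenium carrier gene (0.23). Within a distance of 0.5 of Egr1 lay 8 genes. Nearest to Nr4a1 were Ckap4 (0.06), Slc49a4 (0.09) and Sf3b3 (0.10), with 227 genes within 0.5. Nearest to Ier2 were Slc1a5, an amino acid transporter gene (0.04), Elob (0.10) and Cox17 (0.12), with 53 genes within 0.5.

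Actg1, a cytoplasmic actin gene on the list of SRF targets, had 1.95, 3.01 and 1.25 CPM in libraries 1, 2 and 3, whereas Actb had a mean of 1553 CPM. It was named after its values were seen. Genes with near-identical copies are uncertain in such counts, and the value of Actg1 was not examined further.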
